A study of Mus musculus with 12 samples.

Results

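Guanylate-binding proteins are a family of interferon-induced GTPases, and the 10 genes described here are the rows of the deposited table whose symbol is Gbp2, Gbp2b, Gbp3, Gbp4, Gbp5, Gbp6, Gbp7, Gbp8, Gbp9 or Gbp10, out of 21936 genes. The members were selected on their FPKM in these libraries, where they had already been seen to be lower on the high-fat diet. All values that compare the diets for these 10 genes are therefore given as a description, without a p-value. RNA was sequenced from male C57BL/6 mice, an inbred laboratory strain, kept under 12 h of light a day and 6 to 8 weeks old at the start, with 1 week of adaptation. No altered allele is named for any group. They were fed a standard diet with 10 kcal% fat (labelled CTL) or one high in fat, at 60 kcal% (labelled HF), and tissue was taken at 9h, 15h or 21h. How long the diet lasted differs between the sources, at 3 months in the sample labels and 4 months in the series text. They also differ on the tissue, which is the meibomian gland (a lipid gland that opens on the lid margin) in the labels and the upper and lower eyelids as a whole in the series text. There were 12 libraries, 2 for each diet and time. The sources used here do not tell if tissue of several mice was pooled, so p-values measure only the spread between these libraries, which may be technical.

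Guanylate-binding proteins belong to the dynamin superfamily of large GTPases. Interferon gamma acts on promoters through GAS elements, and type I interferons act through a complex that holds Stat2 and Irf9 and binds interferon-stimulated response elements (ISRE). Irf1, itself induced by interferon, also binds the latter. The proteins coat vacuoles and bacteria inside cells and work with the immunity-related GTPases, and several of them promote inflammasome activation. Gbp2, Gbp2b and Gbp5 end in a prenylation motif that anchors them to membranes. In mice the genes lie in a cluster on chromosome 3 and another on chromosome 5. In barrier tissues such as skin and conjunctiva they are a common readout of interferon exposure.

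The chromosome 3 cluster holds Gbp5, Gbp7, Gbp3, Gbp2b and Gbp2 in this order on the plus strand (GRCm38 chromosome 3, 142493978 to 142638008, 144.0 kb). RefSeq promoter windows on GRCm38.p6, from 250 bases before to 50 bases after a start site, were at hand for these 5 genes. They are shown because the 5 genes were low together on the high-fat diet. The promoter set used here held no entry for Gbp4, Gbp6, Gbp8, Gbp9 or Gbp10, which were lower on that diet too. Capitals mark each match to the ISRE core (TTTC and TTTC with any 2 bases between them, or GAAA and GAAA likewise on the opposite strand) or to the GAS core (TTCNNNGAA, which reads the same on both strands). All are on the plus strand, written 5′ to 3′.
Gbp2 (chr3:142620413-142620712): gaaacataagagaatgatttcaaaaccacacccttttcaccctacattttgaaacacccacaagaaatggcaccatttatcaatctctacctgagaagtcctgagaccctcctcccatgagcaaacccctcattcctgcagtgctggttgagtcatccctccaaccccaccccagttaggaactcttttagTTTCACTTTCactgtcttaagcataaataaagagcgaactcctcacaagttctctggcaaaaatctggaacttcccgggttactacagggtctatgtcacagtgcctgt
Gbp2b (chr3:142594597-142594896): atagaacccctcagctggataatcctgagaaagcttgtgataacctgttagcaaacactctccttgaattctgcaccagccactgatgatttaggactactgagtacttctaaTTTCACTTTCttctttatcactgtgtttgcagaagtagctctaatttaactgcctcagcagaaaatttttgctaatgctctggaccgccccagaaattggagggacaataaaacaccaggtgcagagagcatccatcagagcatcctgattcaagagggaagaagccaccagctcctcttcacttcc
Gbp3 (chr3:142559794-142560093): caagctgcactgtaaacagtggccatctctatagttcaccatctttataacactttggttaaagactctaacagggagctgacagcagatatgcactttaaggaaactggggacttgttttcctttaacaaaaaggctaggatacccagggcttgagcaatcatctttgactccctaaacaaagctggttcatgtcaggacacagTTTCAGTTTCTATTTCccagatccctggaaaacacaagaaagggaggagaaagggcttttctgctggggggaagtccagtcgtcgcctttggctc
Gbp5 (chr3:142496684-142496983): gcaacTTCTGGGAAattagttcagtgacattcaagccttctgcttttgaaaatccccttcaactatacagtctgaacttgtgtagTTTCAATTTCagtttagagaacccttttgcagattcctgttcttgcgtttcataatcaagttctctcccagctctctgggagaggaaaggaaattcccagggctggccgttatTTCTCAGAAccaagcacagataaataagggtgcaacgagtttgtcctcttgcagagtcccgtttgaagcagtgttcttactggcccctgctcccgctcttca
Gbp7 (chr3:142530086-142530385): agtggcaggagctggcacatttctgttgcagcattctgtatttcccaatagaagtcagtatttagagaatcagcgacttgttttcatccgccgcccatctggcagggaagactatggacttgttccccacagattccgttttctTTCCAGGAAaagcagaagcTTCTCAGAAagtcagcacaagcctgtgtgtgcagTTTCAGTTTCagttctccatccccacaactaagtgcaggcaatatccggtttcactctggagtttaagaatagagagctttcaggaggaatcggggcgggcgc
Each of the 5 windows shown held an ISRE core, always in the TTTC form on the strand of transcription. The window of a second Gbp3 start site, not shown, held neither core. Of all 32851 RefSeq promoter windows of this length, 3.44% held an ISRE core. The 5 shown leave out the second Gbp3 window, so they do not compare directly with that share. The match began 59 bases before the start site in Gbp2, 137 in Gbp2b, 45 in Gbp3, 165 in Gbp5 and 53 in Gbp7. In the Gbp3 window shown, a second core, at 39 bases, overlapped the first. Gbp5 and Gbp7 also held 2 GAS cores each, and 8.30% of all windows held at least 1. Windows with both kinds of core made up 0.454% of all. A match is a description of letters and not a measured binding site.

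Gbp2, which is recruited to the vacuoles of intracellular parasites, was by far the most abundant member. Its level on the standard diet was 122.4 and 81.1 FPKM (fragments per kilobase of exon, scaled to the depth of the library) in the libraries of 9h, 105.8 and 188.3 at 15h, and 151.3 and 136.2 at 21h. On the high-fat diet it was 10.5 and 12.7 FPKM at 9h, 37.3 and 12.3 at 15h, and 10.5 and 38.5 at 21h. No high-fat library reached the lowest standard-diet library. In bulk tissue fewer cells of a type and less RNA per cell cannot be told apart. Among the 6 high-fat libraries HF_15h replicate 2 and HF_21h replicate 6 were the highest, at 37.3 and 38.5 FPKM, and the other 4 lay between 10.5 and 12.7 FPKM. The difference between the diets averaged over times was -2.81 ± 0.35 (SE) on the log2(FPKM + 1) scale, and no other of the 13228 genes tested had a lower value.

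**Figure D1:**
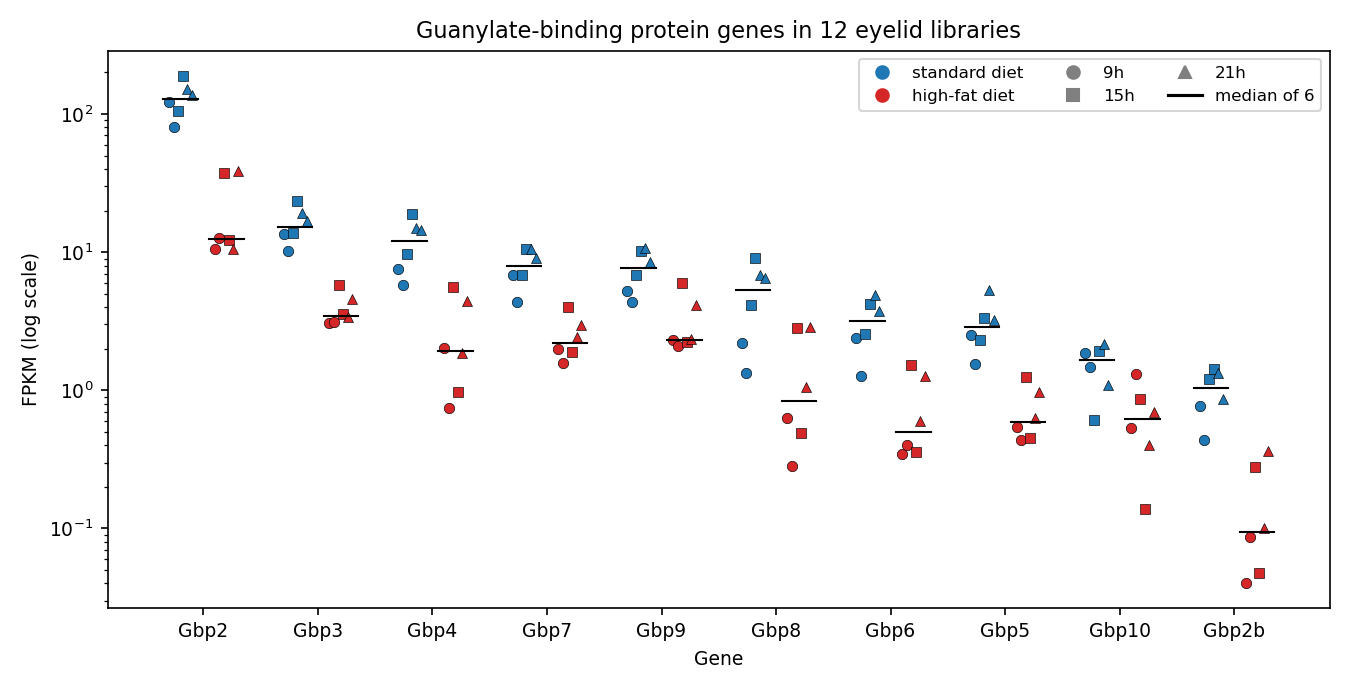
FPKM on a log scale for each of the 10 genes in the 12 libraries, blue for the standard and red for the high-fat diet, with the time of day as the symbol and a bar at the median of 6 libraries. Gbp2 spans 81.1 to 188.3 FPKM on the standard diet and 10.5 to 38.5 on the high-fat diet, and the red and blue points of Gbp6, Gbp8, Gbp9 and Gbp10 overlap.

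The other members of the chromosome 3 cluster were lower on the high-fat diet as well. Gbp3 ranged from 10.3 FPKM over a median of 15.2 to 23.3 on the standard diet. On the high-fat diet it ranged from 3.09 over 3.46 to 5.76, so that the diets did not overlap (log2 difference -1.78 ± 0.15). Gbp7, which has been linked to the assembly of the phagocyte NADPH oxidase, lay at 4.33, 7.94 and 10.6 FPKM (lowest, median, highest) on the standard diet. Its 6 high-fat libraries lay below that range, at 1.57, 2.21 and 3.99 FPKM (-1.37 ± 0.17).

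Gbp5, which promotes activation of the Nlrp3 inflammasome, lay at 1.54, 2.87 and 5.36 FPKM on the standard and at 0.434, 0.587 and 1.24 FPKM on the high-fat diet (-1.20 ± 0.16), again with no overlap. Gbp2b, the gene once called Gbp1, was the least abundant member. It lay at 0.436, 1.04 and 1.43 FPKM on the standard diet and at 0.0406, 0.0936 and 0.362 FPKM on the high-fat diet. These values rest on 22 to 64 reads in the standard-diet and 2 to 17 reads in the high-fat libraries. Its log2 difference of -0.79 ± 0.11 is small because the added 1 outweighs such low levels.

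Of the members, the chromosome 5 cluster holds Gbp8, Gbp9, Gbp4, Gbp10 and Gbp6 on the minus strand. These 5 span 105014150 to 105293698 (GRCm38, 279.5 kb), and Gbp genes that are not members were not used to set these bounds. Gbp4 was its most abundant member on the standard diet, at 5.79, 12.1 and 18.9 FPKM. It was at 0.743, 1.94 and 5.56 FPKM on the high-fat diet, just under the lowest standard-diet value (-1.92 ± 0.32). Gbp9 lay at 4.38, 7.67 and 10.8 FPKM on the standard and 2.09, 2.32 and 5.99 FPKM on the high-fat diet (-1.06 ± 0.20). Gbp8 lay at 1.33, 5.29 and 9.04 FPKM on the standard and 0.284, 0.842 and 2.86 FPKM on the high-fat diet (-1.32 ± 0.27). HF_15h replicate 2 lay above both standard-diet libraries of 9h for Gbp8 and for Gbp9, and HF_21h replicate 6 did so for Gbp8, so that the diets overlapped for these genes. In the GENCODE M21 annotation Gbp4, Gbp8 and Gbp9 share 60 to 61 exon bases, which are 0.801% to 1.77% of the exon bases of each gene.

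Gbp6 and Gbp10 are near-identical copies, and their values are uncertain where the counting could split reads between them. Their coding sequences are both 1833 bases long and differ at 30 of them (98.4% identical). Their first 90 coding bases are the same. Bases outside the coding sequence were not searched for differences. The 60 coding bases with the most differences are bases 1567 to 1626 counted from the start codon. They are shown because, within the coding sequence, reads can best separate the pair there. The differing bases are in capitals (GRCm38, minus strand).
Gbp6 (chr5:105274211-105274270): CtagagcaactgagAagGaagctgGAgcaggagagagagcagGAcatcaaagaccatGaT
Gbp10 (chr5:105218411-105218470): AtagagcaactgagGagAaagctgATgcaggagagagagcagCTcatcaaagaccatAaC
Of all 100-base windows of the annotated Gbp10 transcripts, 60.9% occur unchanged in transcripts of another member, and for Gbp6 it was 36.5%. For the other 8 members the share was 0% to 4.39%. A further annotated gene, Gm43302, spans both loci and shares 46.3% of the exon bases of Gbp10 and 29.0% of those of Gbp6. With transcripts of Gm43302 and of all other Gbp genes counted, 73.5% of the Gbp10 windows and 64.5% of the Gbp6 windows occur elsewhere. Gm43302 is listed at 0 in all 12 libraries. On chromosome 3, Gm43802 shares 11.3% of the exon bases of Gbp7. How reads that fit several genes were counted is not given in the sources used here.

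Gbp6 lay at 1.28, 3.16 and 4.93 FPKM on the standard and 0.347, 0.498 and 1.53 FPKM on the high-fat diet (-1.24 ± 0.19), with HF_15h replicate 2 above the lowest standard-diet library. Gbp10 had the smallest difference on this scale, -0.60 ± 0.20. Its levels were 1.85 and 1.49 FPKM at 9h, 0.614 and 1.93 at 15h, and 2.15 and 1.09 at 21h on the standard diet. On the high-fat diet they were 0.533 and 1.31 FPKM at 9h, 0.859 and 0.139 at 15h, and 0.403 and 0.699 at 21h. HF_9h replicate 7 (1.31 FPKM, 83 reads), HF_15h replicate 2 (0.859) and HF_21h replicate 6 (0.699) thus lay inside the standard-diet range. In HF_9h replicate 7 Gbp6 was at 0.401 FPKM. The ratio of Gbp10 to Gbp6 was 3.27 there, against 0.241 to 1.54 in the other 11 libraries.

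**Figure D2:**
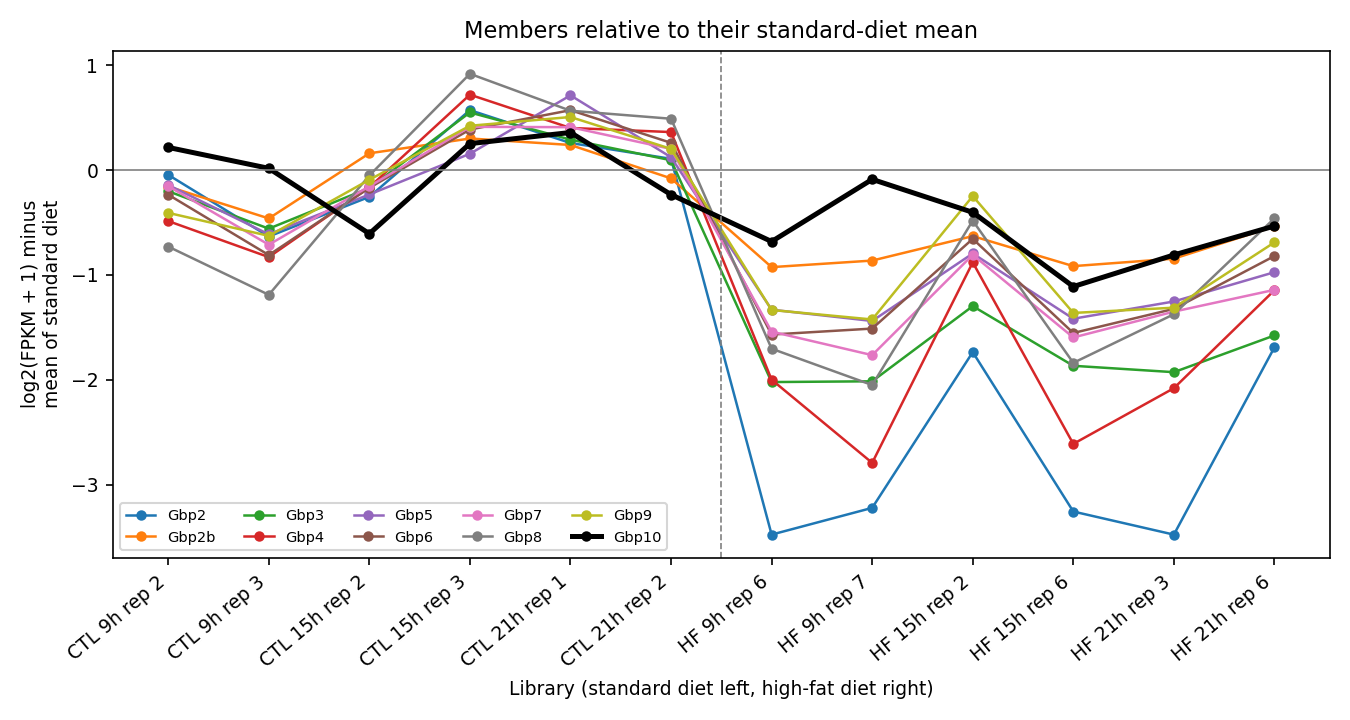
log2(FPKM + 1) of each gene in each of the 12 libraries minus its mean over the 6 standard-diet libraries, with Gbp10 in black. Lines only join the values of a gene, and all genes but Gbp10 share peaks at HF_15h replicate 2 and HF_21h replicate 6.

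The same libraries were high or low in nearly all members. In 9 of 10 members HF_15h replicate 2 and HF_21h replicate 6 were the 2 highest high-fat libraries, the exception being Gbp10, as they were for 5.16% of all genes tested. CTL_9h replicate 3 was the lowest standard-diet library for 9 of 10 members, again all but Gbp10, and for 26.4% of all genes tested. The highest standard-diet library was CTL_15h replicate 3 for 6 members and CTL_21h replicate 1 for 4. The summed FPKM of the family was 112.0, 182.9 and 271.2 (lowest, median, highest) on the standard diet and 22.0, 23.0 and 65.3 on the high-fat diet. Without HF_15h replicate 2 and HF_21h replicate 6, a choice made after seeing the values, the diets overlapped for 1 member, Gbp10. The share of all genes without overlap under that choice was not computed. Leaving out the highest high-fat libraries of a family chosen as low on that diet favours separation, so this supports nothing.

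Across the libraries 6 of 10 members had each high-fat library below each standard-diet library, as did 1.86% of all genes tested. Within each time, 9 of 10 members did not overlap at any of the 3 times, against 3.54% of all genes tested, and Gbp10 overlapped at 15h. limma, a linear model fitted across all genes with 1 mean for each diet and time, called 9 of 10 members lower at an adjusted p under 0.05, all but Gbp10, with 1.78% of all genes called lower. As this contrast chose the family, these counts describe it and support nothing. All 10 members passed the filter of 1 FPKM in 2 libraries. Gbp2b did so through 3 standard-diet libraries alone, and Gbp5 and Gbp10 had 1 high-fat library each above 1 FPKM. The median log2 difference was -1.28 over the members and -0.01 over all genes tested.

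The size of the difference depends on the scale for the low members. On recovered reads, where no 1 is added to each value, the log2 difference was -2.92 ± 0.46 (SE) for Gbp2b and -2.87 ± 0.35 for Gbp2. It was -2.42 ± 0.40 for Gbp4, -2.20 ± 0.37 for Gbp6, -2.08 ± 0.30 for Gbp5, -2.07 ± 0.48 for Gbp8 and -2.02 ± 0.19 for Gbp3. The smallest were -1.70 ± 0.21 for Gbp7, -1.36 ± 0.46 for Gbp10 and -1.30 ± 0.24 for Gbp9. Gbp2b thus moved from the second smallest to the largest difference.

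As the members differed in size of change, the make-up of the family differed too. Gbp2 made up 66.5% to 74.1% of the summed FPKM on the standard diet and 45.0% to 63.3% on the high-fat diet, with no overlap. Gbp9 went the other way, with 3.18% to 4.74% on the standard and 6.83% to 10.4% on the high-fat diet. The share of Gbp7 was 3.87% to 4.65% and 4.86% to 10.4%, again without overlap. Gbp3 held 8.13% to 9.17% and 7.51% to 15.8%, and its 2 ranges overlapped through HF_15h replicate 2 and HF_21h replicate 6. These shares come from the contrast that chose the family and are a description.

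**Figure D3:**
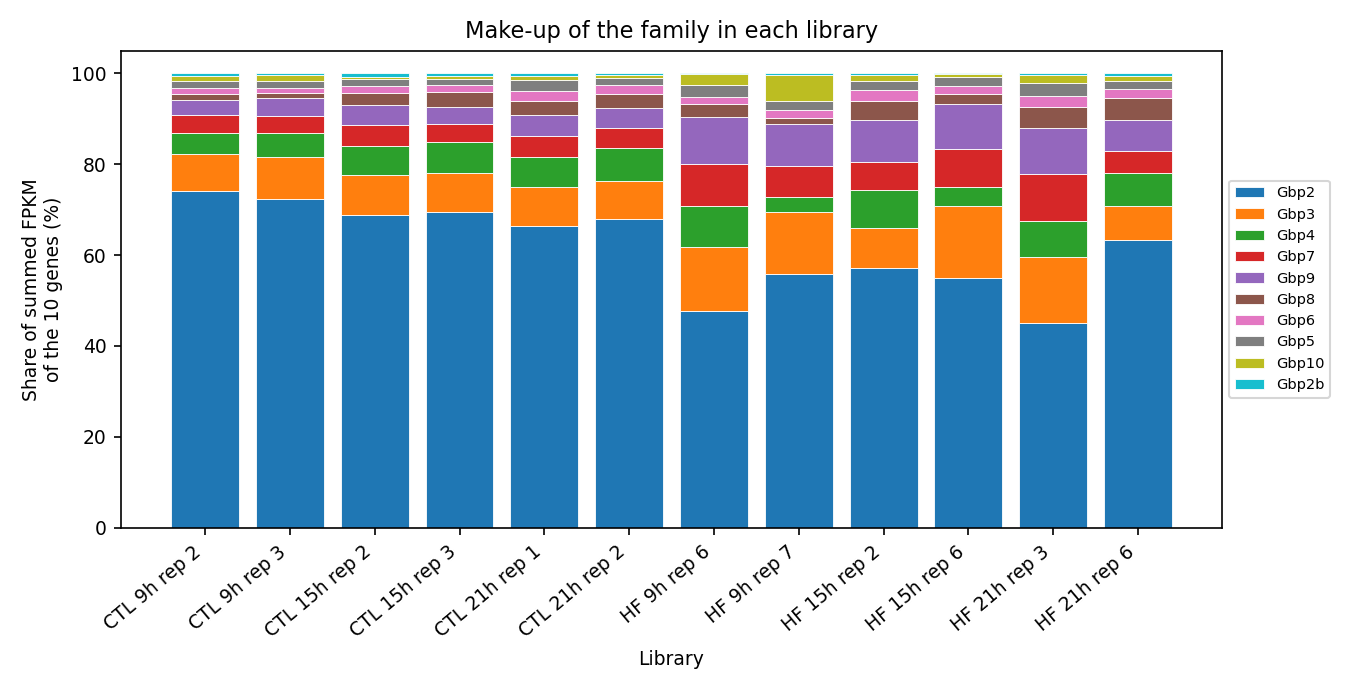
Share of the summed FPKM of the 10 genes taken by each gene, in percent, in each of the 12 libraries. The blue bar, Gbp2, ends between 66.5% and 74.1% in the standard-diet and between 45.0% and 63.3% in the high-fat libraries.

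In both diets the order of levels per kilobase began with Gbp2 and Gbp3 and ended with Gbp10 and Gbp2b. The step from Gbp2 (130.9 ± 37.2 FPKM, SD, n = 6) to Gbp3 (16.1 ± 4.67) on the standard diet, and from 20.3 ± 13.7 to 3.91 ± 1.06 FPKM on the high-fat diet, was the one step at which the ranges of neighbours did not overlap. On the standard diet Gbp4, Gbp7, Gbp9, Gbp8, Gbp6 and Gbp5 followed Gbp3. Gbp7 was above Gbp9 in 4 of 6 libraries and Gbp6 above Gbp5 in 3 of 6, so these neighbours do not differ beyond their spread. On the high-fat diet Gbp9 came next after Gbp3, above Gbp4 in 5 of 6 libraries, whereas on the standard diet Gbp4 was above Gbp9 by a factor of 1.32 to 1.86. Gbp4 and Gbp7 on the high-fat diet (3 of 6 libraries) and Gbp6 and Gbp5 (2 of 6) had no fixed order.

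The diet difference was tested for dependence on the time of day, which the choice of the family did not use directly. For Gbp2 it was -3.01 ± 0.60 at 9h, -2.65 ± 0.60 at 15h and -2.76 ± 0.60 at 21h (log2 scale, SE, 2 libraries against 2). Gbp5 lay at -1.01 ± 0.27, -1.07 ± 0.27 and -1.53 ± 0.27, and Gbp8 at -0.92 ± 0.47, -1.59 ± 0.47 and -1.44 ± 0.47. Each of the 10 members had a negative value at each time. These signs come from the diet difference that chose the family and are a description. For the interaction of diet with time, tested by F, the members had unadjusted p-values from 0.329 (Gbp2b) to 0.921 (Gbp4), and a limma adjusted p of 0.999 for each member. Over all 13228 genes limma called 0 (0%) and had 405 with p under 0.05 before adjustment, and on recovered reads limma-voom called 0 and had 376. With 2 libraries a group the standard error of the change in the diet difference from 9h to 15h was 0.26 to 0.85 for the members. For Gbp2b this change was -0.42 ± 0.26. Even a change larger than its standard error could thus go undetected.

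**Figure D4:**
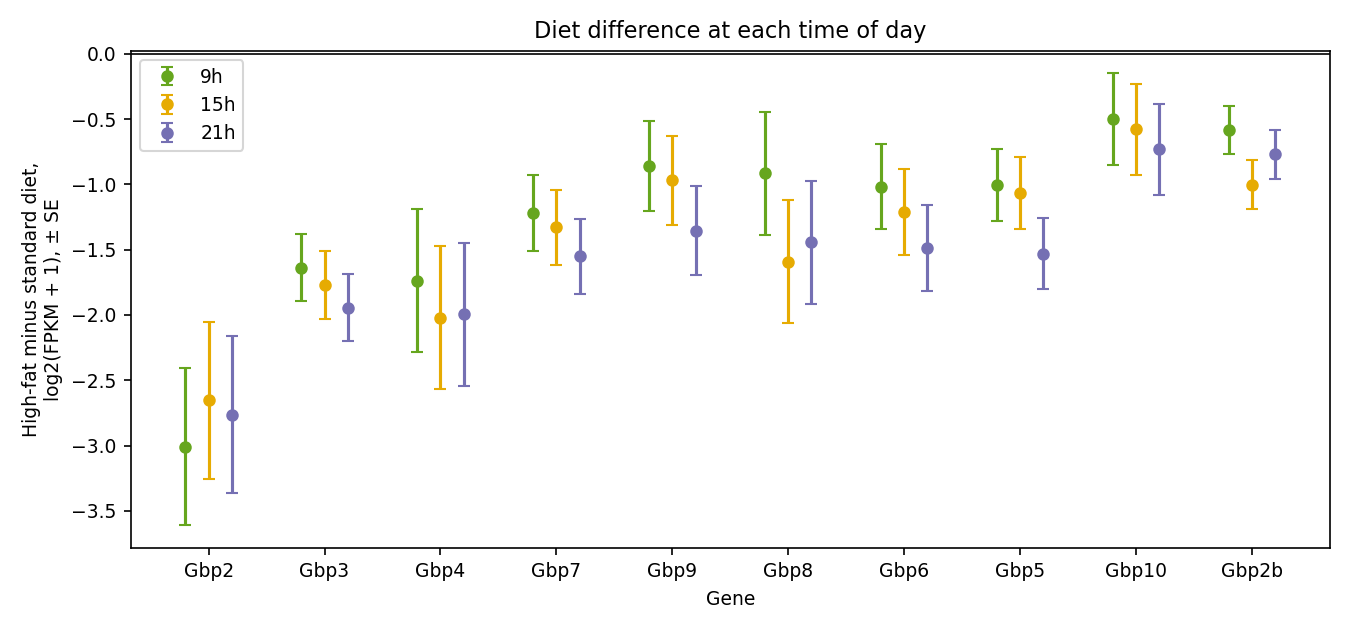
High-fat minus standard diet on the log2(FPKM + 1) scale at 9h, 15h and 21h for each of the 10 genes, with bars of 1 standard error from the fit of all 12 libraries. At each of the 3 times all 10 genes, chosen as lower on the high-fat diet, lie below 0, from -3.01 (Gbp2 at 9h) to -0.50 (Gbp10 at 9h).

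The time of day was independent of the choice of the family. Averaged over both diets, 9 of 10 members had positive values from 9h to 15h, as did 60.7% of all genes tested, with a median of 0.52 on the log2 scale against 0.05 for all genes tested. Gbp8 had the largest value (1.05 ± 0.33, limma adjusted p = 0.123), followed by Gbp4 (0.79 ± 0.39, 0.256), Gbp2 (0.67 ± 0.43, 0.372) and Gbp9 (0.63 ± 0.24, 0.172). Gbp10 was at -0.33 ± 0.25 (limma adjusted p = 0.45). The mean log2(FPKM + 1) of the members on the standard diet was 2.71 and 2.30 at 9h and 2.77 and 3.42 at 15h. On the high-fat diet it was 1.29 and 1.23 at 9h and 2.15 and 1.19 at 15h, so a rise there rests on HF_15h replicate 2. Without that library Gbp2 was at 0.30 and Gbp4 at 0.36. Most members rose and fell together across libraries, so their signs are not separate results. None of the members was called by limma, with 6 at an unadjusted p under 0.05, nor by limma-voom on recovered reads, and 0.0227% of all genes were called, or 23.2% at an unadjusted p under 0.05.

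From 9h to 21h the picture was alike, with 9 of 10 positive values (59.9% of all genes tested) and a median of 0.60 against 0.05 for all genes. Gbp8 was at 1.22 ± 0.33 (limma adjusted p = 0.0603), Gbp4 at 0.91 ± 0.39 (0.161), Gbp6 at 0.70 ± 0.23 (0.0928) and Gbp10 at -0.17 ± 0.25 (0.684). limma called none of the members, with 7 below 0.05 before adjustment, and limma-voom called none, while 6.02% of all genes were called and 28.3% had an unadjusted p under 0.05. The comparisons share the 9h libraries and are not independent. On the high-fat diet the mean log2(FPKM + 1) of the members at 21h was 1.37 in replicate 3 and 1.99 in replicate 6. Without HF_21h replicate 6, Gbp2 was at 0.20 and Gbp4 at 0.68. Gbp8 passed when HF_9h replicate 6 (adjusted p = 0.0443), HF_15h replicate 2 (0.0354) or HF_15h replicate 6 (0.0354) was left out. On the standard diet the Gbp8 libraries were at 2.21 and 1.33 FPKM at 9h, 4.13 and 9.04 at 15h, and 6.87 and 6.46 at 21h, and the 9h libraries lay below the others. From 15h to 21h the members lay between -0.08 ± 0.18 (Gbp3) and 0.22 ± 0.19 (Gbp5). limma and limma-voom called none of all genes (0%), with 588 and 499 at an unadjusted p under 0.05, and no member was among the 588.

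The nearest tested protein-coding genes on either side of the members of each cluster, other Gbp genes set aside, were not called. On chromosome 3 the nearest tested genes were Pdlim5, a cytoskeletal adaptor gene 98.3 kb before the cluster, at 22.1 ± 1.19 FPKM on the standard and 22.2 ± 1.21 on the high-fat diet (log2 difference 0.00 ± 0.06), and Kyat3, 63.0 kb after it (-0.05 ± 0.10). Rap1gds1 and Gtf2b, next outward, were at -0.04 ± 0.07 and 0.03 ± 0.06. On chromosome 5 Abcg3, a transporter gene 31.4 kb before the cluster, was at 1.17 ± 0.34 and 0.682 ± 0.113 FPKM (-0.36 ± 0.09, limma adjusted p = 0.0868). Pkd2, Lrrc8b and Lrrc8c were at 0.07 ± 0.09, 0.14 ± 0.07 and 0.00 ± 0.09. For these 8 genes the adjusted p was 0.0868 to 0.99.

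**Figure D5:**
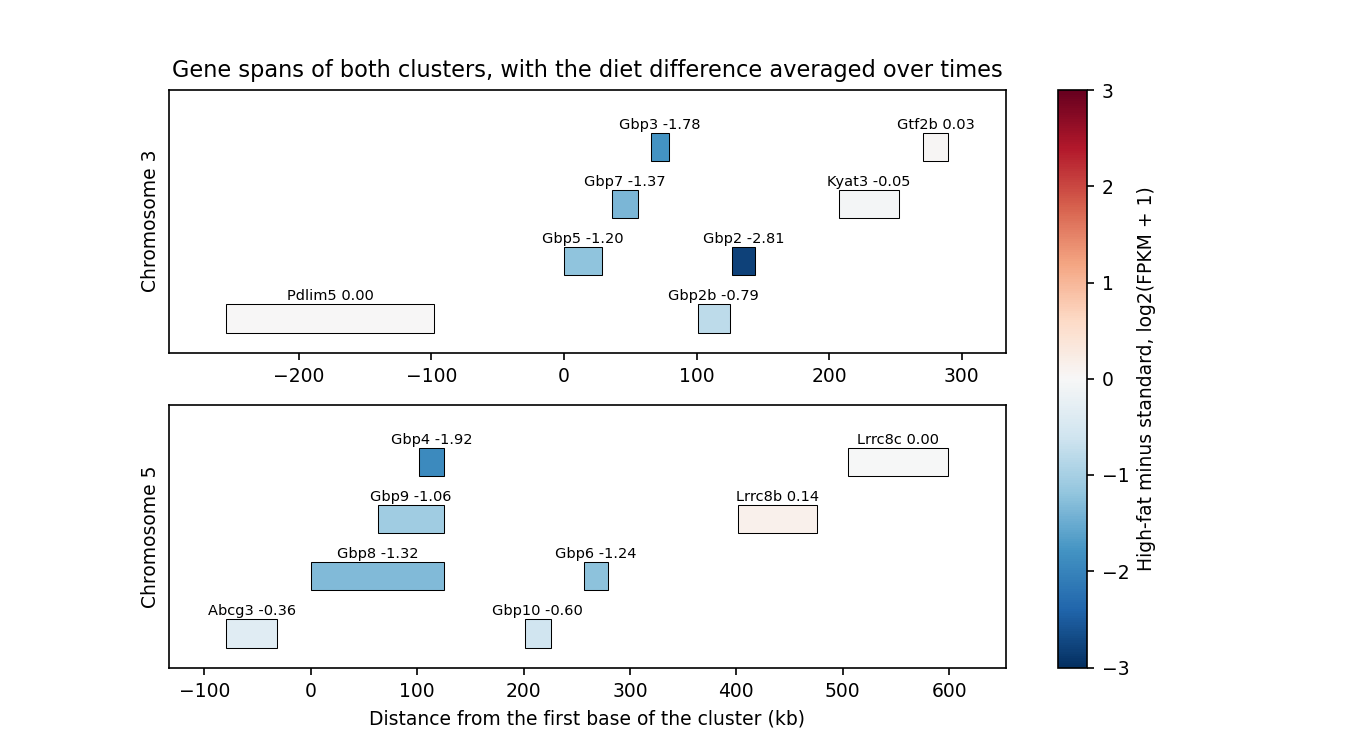
Spans of the members and their nearest tested neighbours on chromosomes 3 and 5, in kb from the first base of each cluster, coloured and labelled by the high-fat minus standard difference on the log2(FPKM + 1) scale averaged over times. Members lie between -2.81 and -0.60 and the neighbours drawn between -0.36 and 0.14.

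Partners and inducers of the family were taken from lists written with earlier results of these data known. The immunity-related GTPases, smaller interferon-induced GTPases that act on the same vacuoles, were lower on the high-fat diet too. All 7 tested genes of this list fell on the high-fat diet (limma adjusted p under 0.05), as did 1.78% of all genes tested, with a median log2 difference of -2.23 against -0.01 for all genes. Ifi47 was at 29.9 ± 6.09 FPKM (SD, n = 6) on the standard and 5.99 ± 3.06 on the high-fat diet (-2.23 ± 0.25, limma adjusted p = 0.00354). Igtp was at 45.4 ± 13.9 and 7.73 ± 5.18 FPKM (-2.56 ± 0.33, limma adjusted p = 0.00476). Irgm1 and Irgm2, the regulatory members that guard self membranes, differed by -2.03 ± 0.26 (limma adjusted p = 0.00463) and -1.99 ± 0.23 (0.00354). The other 3 were Iigp1, Tgtp1 and Tgtp2.

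Of 17 tested genes of interferon signalling, 8 fell and none rose, with a median of -0.34, against 1.78% of all genes lower and 0.204% higher. Among them were the transcription factors Stat2, Irf1, Irf8 and Irf9, the feedback inhibitor Socs1, and Nlrc5 and Ciita, transactivators of antigen presentation genes. Stat2 was at 16.5 ± 5.33 FPKM on the standard and 6.76 ± 2.22 on the high-fat diet (-1.16 ± 0.15, limma adjusted p = 0.00481), and Irf1 at 29.8 ± 5.79 and 14.2 ± 4.03 FPKM (-1.05 ± 0.15, 0.00639). Socs1 was at 4.59 ± 0.988 and 2.23 ± 0.258 FPKM (-0.77 ± 0.11, 0.00576).

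The receptors and kinases upstream of them were not called. The interferon gamma receptor genes Ifngr1 and Ifngr2 were at -0.14 ± 0.15 (limma adjusted p = 0.745) and -0.34 ± 0.14 (0.306). Jak1 was at -0.08 ± 0.06 (0.594), Jak2 at -0.16 ± 0.10 (0.503) and Tyk2 at 0.01 ± 0.09 (0.98). Ifng, the gene of interferon gamma, did not pass the filter. It had 1 and 3 recovered reads at 9h, 8 and 6 at 15h, and 17 and 9 at 21h on the standard diet. On the high-fat diet it had 3 and 1 reads at 9h, 3 and 0 at 15h, and 0 and 3 at 21h. The sums were 44 and 10 reads.

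Lists on how the proteins act held no called gene. None of 5 prenylation enzymes, 11 genes of autophagy conjugation (which loads guanylate-binding proteins onto vacuoles), 8 other members of the dynamin superfamily and 7 inflammasome genes passed. The members with the smallest p were Rce1 (0.23 ± 0.07, limma adjusted p = 0.158), Atg16l1 (0.18 ± 0.11, 0.487), Atl2 (0.24 ± 0.05, 0.0531) and Casp1 (-0.40 ± 0.10, 0.0922). Without HF_9h replicate 6, 1 dynamin relative was called higher and 1 inflammasome gene lower, and with no filter 1 of 10 dynamin relatives was called higher and 1 lower. All 7 inflammasome genes had negative values, with a median of -0.40.

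Several markers of lymphocytes were lower on the high-fat diet beside the family. The markers named here were chosen after their values were seen. Among 7 tested T cell markers 4 fell, against 1.78% of all genes tested. The summed FPKM of the list was 17.4 to 34.0 on the standard and 8.20 to 12.9 on the high-fat diet. The count was 1 without CTL_9h replicate 2, and 2 without CTL_15h replicate 3, CTL_21h replicate 1, HF_9h replicate 6, HF_9h replicate 7, HF_21h replicate 3 or HF_21h replicate 6, or with no filter, while all 7 had negative values under each of these. Cd8a, of cytotoxic T cells, was at 4.39 ± 1.56 and 0.784 ± 0.705 FPKM (-1.62 ± 0.25, limma adjusted p = 0.0116). Cd4, of helper T cells, was at -0.64 ± 0.14 (0.0555). Of the natural killer and cytotoxic cell list, Ncr1, Klrb1c, Eomes and Prf1 did not pass the filter. Of its 3 tested genes 2 fell, Gzma and Gzmb, which encode granzymes. The count of these genes that fell was 1 without CTL_9h replicate 2, CTL_15h replicate 3 or CTL_21h replicate 1. The whole cytotoxic list summed to 15.4 to 34.2 FPKM on the standard and 1.52 to 7.41 on the high-fat diet. HF_21h replicate 6 (7.41) and HF_15h replicate 2 (7.03) were its highest high-fat libraries. They were so for 9 of 10 guanylate-binding proteins and for 5.16% of all genes tested. The same libraries were highest on that diet for the sums of T cell markers (12.4 and 12.9 FPKM, with HF_21h replicate 3 at 12.3). This also held for B cell markers (2.27 and 1.44) and the immunity-related GTPases (49.5 and 57.4). The cytotoxic marker Klrb1c was at 0 in some libraries. The B cell list summed to 1.53 to 8.65 and 0.330 to 2.27 FPKM, and its 3 tested genes had negative values. Cd79b, called by limma, was above 1 FPKM in standard-diet libraries alone and was not called with a pseudocount of 0.1, with no filter or by limma-voom, so no change is read from it, and Ms4a1 was at 0 in some libraries. The part of these cells in the values of the family was not tested.

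Markers of other cell types were mostly not called. None of 9 macrophage markers was called, all 9 had negative values, and their sum was 305.3 to 502.2 and 139.7 to 377.4 FPKM. Without HF_15h replicate 6, 4 of the 9 were called lower, with a median of -0.81 against -0.56, and without CTL_9h replicate 3, 1 was. Without HF_15h replicate 2 none was called and the median was -0.30. The macrophage sum was lowest, at 139.7 FPKM, in HF_15h replicate 2, and it was 329.6 FPKM in HF_21h replicate 6. Both were the high-fat libraries in which most members were highest. On the standard diet the sum was lowest, at 305.3 FPKM, in CTL_9h replicate 3, where most members were lowest too. The part of macrophages in the values of the family was not tested. None of 6 endothelial (28.6 to 41.6 and 30.7 to 45.3 FPKM) or 4 keratinocyte markers (3171 to 3626 and 2706 to 3480 FPKM), 5 markers of skeletal muscle (2117 to 4973 and 2037 to 5249 FPKM) and 3 of conjunctiva (956.9 to 1505 and 1029 to 1808 FPKM) was called. The lipid genes of meibocytes, the secretory cells of the gland, summed to 4732 to 7188 and 5260 to 8215 FPKM, and were high in all libraries, as were those of skin, muscle and conjunctiva. Of 7, 1 rose, Soat1, a sterol acyltransferase (0.42 ± 0.08, limma adjusted p = 0.0408). That call was lost with no filter, with median centring and without any 1 of 9 of the 12 libraries, all but HF_9h replicate 6, HF_15h replicate 2 and HF_15h replicate 6. No marker gene of these lists was at 0 in all libraries.

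Genes whose pattern was most like that of the family were sought by the correlation with the members' mean log2(FPKM + 1), taken within the 6 standard-diet and within the 6 high-fat libraries, and ranked by the smaller of the 2 values. The first 5 were Tap1 (0.98 and 0.99), a peptide transporter of antigen presentation, Igtp (0.97 and 0.97), Iigp1 (0.99 and 0.97), H2-Q6 (1.00 and 0.96), a nonclassical class I histocompatibility gene, and Irgm2 (0.96 and 1.00). Tap1 spanned 24.8 to 39.8 FPKM on the standard and 9.99 to 18.2 on the high-fat diet. These values come from 6 libraries a diet chosen as the best of 13228 genes, and are a description. Measured the same way against the other 9 members, Gbp10 had 0.28 and 0.23, and the other members 0.85 to 0.99 on the standard and 0.93 to 0.99 on the high-fat diet.

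The depth of the libraries, from the step that 1 read makes, was 14096362 to 17889158 reads, and the recovered reads summed over genes were 14079167 to 17867452, so that 1 read on a transcript of 2 kb is worth 0.0279 to 0.0355 FPKM. The members with the fewest reads were Gbp2b (2 to 64 reads) and Gbp10 (8 to 124), and counting error is largest for these. Across all genes 262 of 13228 were called between the diets (1.98%), 27 higher (0.204%) and 235 lower.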

How the data were processed

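RNA-seq of eyelid tissue from 12 libraries gave 1 table of FPKM values, deposited by the authors. HISAT2 2.0.5, HTSeq 0.9.1, DESeq 1.30.0 and the mm9 build are named per the submitters' processing notes. No source used here gives the steps to FPKM or the strand setting. Of 21936 gene IDs, 21894 matched GENCODE M21 (GRCm38), whose exon lengths turned 98.1% of nonzero values into whole reads within 0.02 reads. Annotation and coordinates are therefore GRCm38, not the mm9 of the notes.

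Groups came from the sample labels. limma 3.58.1 (R 4.3.3) was fitted on log2(FPKM + 1) of 13228 genes above 1 FPKM in 2 or more libraries, with 1 mean for each diet and time (6 residual degrees of freedom) and Benjamini-Hochberg adjustment over all genes. Contrasts were diet averaged over times, the 3 pairs of times, and the interaction. Fold changes on this scale understate those of low genes. Alternatives were a pseudocount of 0.1, no filter, median centring, limma-voom on recovered reads, a replicate block and leaving out each library. The text names all members, up to 4 called genes of each pathway list by smallest p (or the smallest p where none was called), the 5 genes most like the members and the 2 tested genes next to each cluster on either side. Some list genes that the rule names or the lists count are not reported here by name. Further list genes and the markers named were chosen after their values were seen. The members and lists were chosen with earlier results of these data known. The scripts were tested on simulated data. Promoter sequences are from RefSeq (GRCm38.p6).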

Additional observations from a re-analysis of the deposited data

How the results depend on the processing

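No member changed the direction of its diet difference under any alternative. A pseudocount of 0.1 gave 8 members called, with 249 of 13228 genes called in either direction. No filter gave 7 members (211 of 18451 genes), limma-voom 8 (236 of 13224 genes), and leaving out 1 library 6 to 9. As the diet contrast chose the family, these member counts describe it and support nothing. The low members moved with the scale: with a pseudocount of 0.1 the log2 difference was -2.21 for Gbp2b, -1.94 for Gbp5, -2.04 for Gbp6, -1.97 for Gbp8 and -1.20 for Gbp10. Same-numbered libraries of different groups share only a number: of 12 such pairs 3 had a correlation of deviations over 0.1 (-0.50 to 0.29). With the replicate block, which leaves 2 residual degrees of freedom, 0 genes were called for diet, from 9h to 15h or from 9h to 21h, and 0 of the interferon signalling and immunity-related GTPase lists. The log2 differences stayed negative for all members in that fit, at -2.82 for Gbp2, -1.67 for Gbp3, -1.46 for Gbp4 and -0.47 for Gbp10, and the median of the immunity-related GTPases was -1.98. Without a filter 429 genes were called from 9h to 21h (796 with it). Leaving out 1 library gave 143 to 294 genes for diet, 0 to 2713 from 9h to 15h, 0 to 1 from 15h to 21h, 4 to 3373 from 9h to 21h and 0 for the interaction. For diet the counts furthest from 262 were 145 without CTL_9h replicate 2, 143 without CTL_15h replicate 3, 169 without CTL_21h replicate 1 and 159 without HF_21h replicate 3. From 9h to 21h the count moved by over 1.5 times without any 1 of the 10 libraries outside HF_15h. The 2713 and 3373 came without HF_9h replicate 6, and the cause was not tested. Without HF_15h replicate 2 and HF_21h replicate 6, chosen after seeing the data, 221 genes were called for diet, 1 from 9h to 15h, 3 from 15h to 21h, 139 from 9h to 21h and 1 for the interaction. The interferon signalling list then had 6 genes lower and the immunity-related GTPases 7. The cause of these shifts was not tested. At 2 to 17 reads in the high-fat libraries, Gbp2b is limited by depth.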
